A study of Drosophila melanogaster with 23 samples.

Results

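Brains of 40-day-old female flies were compared with brains of 40-day-old male flies, gene by gene over the whole transcriptome. The comparison took the 3 libraries whose labels give female sex and an age of 40 days, called F40A, F40B and F40C, and the 3 whose labels give male sex and the same age, called M40A, M40B and M40C, so that 6 of the 23 libraries of the series were its members. All flies were Canton-S, a wild-type laboratory strain of Drosophila melanogaster, with no transgene, drug or other treatment in either sex. Each library came from a pool of 18 dissected brains, with 3 pools per sex. A pool mixes every cell type of the brain with whatever fat body, gut or blood cells came along in the dissection, and in such bulk samples fewer cells of a type and less RNA per cell cannot be told apart. The labels give the pools as separate samples, and the study describes them as biological replicates. The other 17 libraries were brains of both sexes at 5, 20 and 30 days, and they entered the fit so that all groups shared an estimate of the spread.

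Sex in the fly is read by each cell from its X chromosomes. The RNA-binding protein Sex-lethal (Sxl) is made in females, where it blocks production of the MSL2 protein and directs splicing of transformer (tra), which in turn sets the female forms of doublesex (dsx) and fruitless (fru). In males MSL2 joins with other MSL proteins and with the noncoding RNAs roX1 and roX2 in a complex that coats the X chromosome and raises its transcription, a process called dosage compensation. Outside the nervous system the head holds fat body, a tissue that in females makes yolk proteins and other secreted products under the control of dsx and of feeding.

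Total counts were 14470794, 6770442 and 16124005 in F40A, F40B and F40C, against 14572023, 14032497 and 15628443 in M40A, M40B and M40C, so that F40B was the shallowest library. Levels are given as CPM, that is counts per 1e+06 counts of a TMM-scaled library, and a gene without a count has a limit of 0.186 to 0.443 CPM in these libraries (3 counts of the total, covering counting error only). Neuronal and glial markers were present in every library, with elav at 257 to 593 CPM and repo at 111 to 276 CPM. Transcripts of mex1, expressed in the midgut, stood at 75.5, 0.405 and 0.0599 CPM in F40A, F40B and F40C, against 0.673, 2.92 and 52.6 CPM in M40A, M40B and M40C, so that 1 library of each sex carried gut transcripts well above the others. F40A lay nearest to M40C among the other 5 libraries (distance 1.11 between log2 CPM profiles), while F40B and F40C (0.823) and M40A and M40B (0.85) lay nearest to each other.

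Of 17521 genes in the table, 11332 had enough counts to be tested. At a 5% false discovery rate in edgeR's quasi-likelihood test (two-sided, Benjamini-Hochberg adjustment), 41 genes differed between the sexes, which is 0.362% of those tested. Of these, 9 genes (0.0794%) were higher in females and 32 genes (0.282%) were higher in males. In all 41 the female and male libraries did not overlap, as was also the case for 1778 genes (15.7%) of all tested. With no adjustment, p was under 0.05 for 441 genes higher in females (3.89%) and 774 higher in males (6.83%). DESeq2 called 202 of 10819 genes, 77 higher in females and 125 higher in males, with all 41 among them. The number of calls depended on each library. It was 17, 9 and 17 without F40A, F40B and F40C, and 27, 25 and 24 without M40A, M40B and M40C.

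The 2 directions differed in kind. The median log2 fold change (female minus male) of the 32 male-higher genes was -0.81, and 23 of them differed by less than 2-fold. The female-higher side held fewer genes, and 6 of its 9 genes differed by more than 2-fold. In the plot of all genes the roX RNAs stand far below the other called genes, and most of the other male-higher genes form a band just under the cloud.

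**Figure D1:**
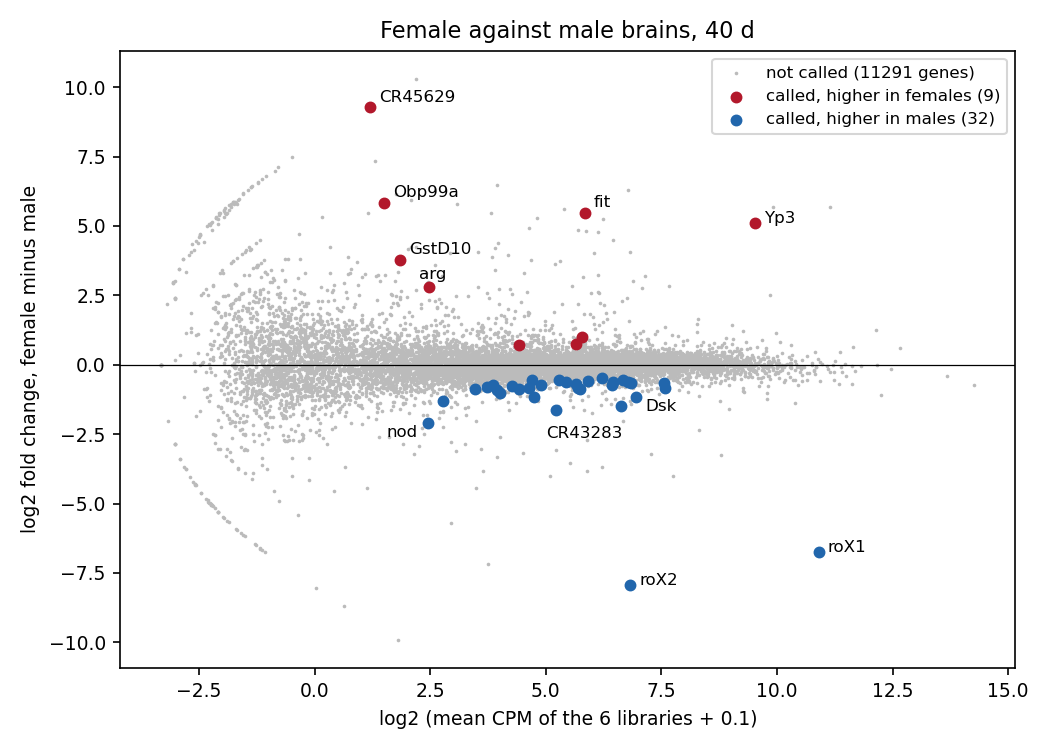
Log2 fold change at 40 days (female minus male) of each of 11332 tested genes against the log2 of its mean CPM over the 6 libraries plus 0.1. Red points are the 9 genes called higher in females, blue points the 32 called higher in males, and grey points the rest. The fitted value of CR45629, which had no count in males, depends on the prior count and is no measured fold.

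The dosage compensation RNAs had the largest fold changes among called genes with counts in both sexes. roX1 (X:3857230-3862697, minus strand) had 31.7, 44.3 and 30.1 CPM in F40A, F40B and F40C, against 3276, 4260 and 3841 CPM in M40A, M40B and M40C. It was thus 107-fold higher in males, with a log2 fold change of -6.75 ± 0.35 (SE) and an adjusted p of 1.81e-09 in edgeR's quasi-likelihood test. roX2 (X:11579065-11580432, plus strand) had 1.17, 1.35 and 0.359 CPM in females, against 206, 308 and 163 CPM in males (log2 fold change -7.95 ± 0.92, adjusted p = 0.000587 by the same edgeR test). The sexes lay far apart for both RNAs, although roX2 varied among libraries of the same sex, and these were the only genes called under all 17 alternative settings. The level in females was 0.932% of that in males for roX1 and 0.425% for roX2.

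msl-2, which encodes the limiting subunit of the complex in males, had 34.8, 40.0 and 38.1 CPM in females, against 67.2, 68.4 and 71.8 CPM in males. It was lower in females with a log2 fold change of -0.88 ± 0.14 (adjusted p = 0.00922, edgeR's quasi-likelihood test), and the adjusted p was 0.0616 without F40A and 0.0531 without F40B. The other members of the list of 10 dosage compensation genes did not pass. msl-3, a chromatin-binding subunit, stood nearest with 15.2, 17.8 and 15.8 CPM in females, against 20.8, 20.6 and 21.6 CPM in males (-0.37, adjusted p = 0.264). The log2 fold changes of msl-1 (the scaffold subunit), mle (the helicase), mof (the histone acetyltransferase), Clamp (a DNA-binding partner) and JIL-1 (a histone kinase) lay between -0.10 and 0.08. All told 3 of the 10 genes were called, all male-higher, against 0.282% of all tested genes, and the list's median was -0.09, against 0.00 over all tested genes.

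nod, a kinesin known from chromosome movement in egg cells, lies on the same strand 339 bases past the annotated end of roX2 (X:11580772-11585750). It had 1.10, 2.16 and 2.82 CPM in females, against 7.67, 10.9 and 7.38 CPM in males (-2.09 ± 0.42, adjusted p = 0.0345, edgeR's quasi-likelihood test). Whether reads running on from roX2 enter its count was not tested. The call was lost without any 1 of the 6 libraries (adjusted p of 0.0543 to 0.150).

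No gene of the sex determination list (15 tested) was called, and 1 had an unadjusted p under 0.05 in each direction. Sxl, the switch gene, had 590, 623 and 689 CPM in females, against 215, 317 and 445 CPM in males, without overlap between the sexes. Its log2 fold change was 0.96 ± 0.22 with an adjusted p of 0.0726 in edgeR's quasi-likelihood test. It passed without M40C (adjusted p = 0.0356), with the exon-length trend described below removed (0.00522) and in DESeq2 (0.00540). ix, a partner of the female form of dsx, had 8.07, 8.64 and 8.21 CPM in females, against 13.5, 13.2 and 14.9 CPM in males (-0.74 ± 0.17, adjusted p = 0.0681), again without overlap. It also passed in DESeq2 (adjusted p = 0.0112).

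The genes further down the pathway showed less. tra had 12.3, 18.0 and 14.3 CPM in females, against 10.8, 12 and 14.3 CPM in males (0.26, adjusted p = 0.645). dsx had 54.7, 27.3 and 54.3 CPM in females, against 71.5, 63.2 and 56.7 CPM in males (-0.49, adjusted p = 0.478), and fru, which in males shapes courtship circuits, had 204, 223 and 255 CPM in females, against 135, 197 and 198 CPM in males (0.36, adjusted p = 0.632). These genes differ between the sexes mainly in splicing, which counts per gene do not resolve.

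**Figure D2:**
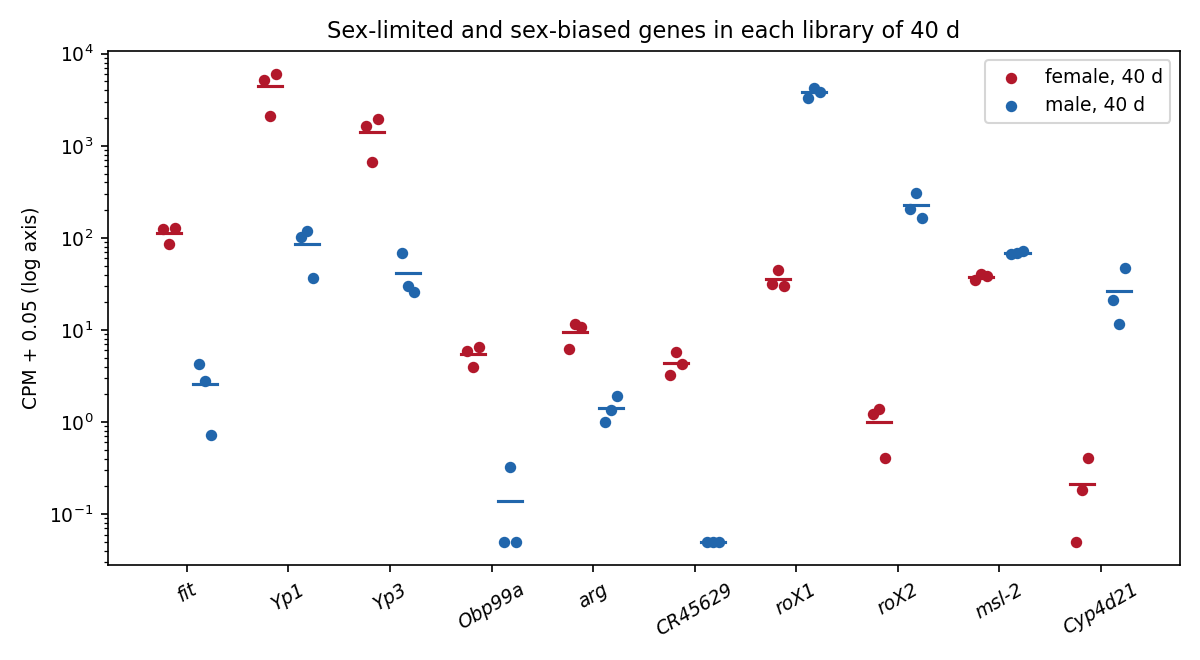
CPM plus 0.05, on a log axis, of 10 genes in each of the 3 female (red) and 3 male (blue) libraries of 40 days, with a bar at the mean of each sex. fit, the yolk protein genes and Obp99a were high in all 3 female libraries, roX1 and roX2 in all 3 male libraries, and the sexes do not overlap for any gene shown.

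By chromosome, X had 1855 tested genes and 11 calls (0.593%), 4 higher in females and 7 higher in males, the roX RNAs included. Chromosome 2 had 14 calls among 4329 genes, all higher in males, and chromosome 3 had 16 among 4974 genes, 5 higher in females and 11 in males. The median log2 fold change was 0.07 on X, against -0.01 on chromosome 2 and -0.01 on chromosome 3, and 58.0% of X genes were above zero, against 48.5% on chromosome 2 and 48.3% on chromosome 3. The median on X ran from 0.03 to 0.11 over 17 settings and was 0.06 with the exon-length trend removed. Median exon length was 2214 bases on X, against 1882 on chromosome 2 and 1866.5 on chromosome 3. None of the 12 genes of the Y-linked list had enough counts to be tested.

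The list of yolk and head fat body genes supplied 3 of the 9 female-higher genes. fit (3R:21883924-21884454, minus strand), a small secreted protein that in fed females limits protein appetite, had 123, 85.3 and 128 CPM in females, against 4.24, 2.71 and 0.677 CPM in males. It was 44.2-fold higher in females (log2 fold change 5.47 ± 0.63, adjusted p = 0.000587, edgeR's quasi-likelihood test), and it passed without any 1 of the 6 libraries. The noncoding gene CR45046 overlaps fit on the same strand and had 29.5, 12.6 and 42.5 CPM in females, against 1.21, 2.58 and 0.739 CPM in males (4.22, adjusted p = 0.0690). The counts of these 2 genes cannot be fully told apart.

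The 3 yolk protein genes, all on X, encode the lipase-like proteins that are stored in the egg. Yp3 (X:13759546-13761547, plus strand) had 1653, 675 and 1937 CPM in females, against 68.8, 30.0 and 26.1 CPM in males (5.09 ± 0.92, adjusted p = 0.0202, edgeR's quasi-likelihood test). Without F40B the adjusted p was 0.0394, and without any other library it was 0.0505 to 0.0979. Yp1 had 5149, 2120 and 5998 CPM in females, against 103, 120 and 36.9 CPM in males, and Yp2 had 2390, 850 and 2418 CPM in females, against 44.1, 46.2 and 21 CPM in males.

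The log2 fold change of Yp1 was 5.67 ± 1.42 (adjusted p = 0.10) and that of Yp2 5.67 ± 1.35 (adjusted p = 0.0806), so that neither passed edgeR's quasi-likelihood test, although female and male libraries lay more than 10-fold apart for each. Both passed in DESeq2, with an adjusted p of 7.9e-06 for Yp1 and 1.05e-06 for Yp2. F40B held the lowest level of all 3 yolk genes among females. The level in males was 1.96% of that in females for Yp1, 1.97% for Yp2 and 2.93% for Yp3. CR45601, which lies within Yp1 on the other strand, had 8.55, 5.27 and 8.69 CPM in females, against 0.202, 0.271 and 0.739 CPM in males (4.18, adjusted p = 0.0721).

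Obp99a, an odorant binding protein gene expressed in fat body as well as in antennae, had 5.79, 3.92 and 6.41 CPM in females, against 0, 0.271 and 0 CPM in males (5.83 ± 0.89, adjusted p = 0.00775, edgeR's quasi-likelihood test). It passed without any 1 of the 6 libraries. Obp99b, its neighbour in the genome and also a fat body product, had 75.1, 126 and 128 CPM in females, against 123, 84.8 and 27.6 CPM in males (0.48 ± 0.80, adjusted p = 0.897), with overlap between the sexes. In the odorant binding protein list, 1 of 31 tested genes was called, Obp99a itself, and the list's median of -0.94 became 0.03 with F40A and M40C left out.

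A pair of genes known for male-biased expression in the head lay on the other side. Cyp4d21, a cytochrome P450 that males need for courtship and mating, had 0, 0.135 and 0.359 CPM in females, against 20.9, 11.6 and 46.6 CPM in males. Its log2 fold change of -7.17 ± 1.5 had an adjusted p of 0.0535 in edgeR's quasi-likelihood test and of 0.0458 when only genes with at least 1 CPM in 3 libraries were tested. sxe2, a lipase known for male-biased expression in the head, had 0.207, 1.08 and 1.62 CPM in females, against 25.2, 17.1 and 22 CPM in males (-4.46 ± 1.18, adjusted p = 0.113). Neither gene had overlap between the sexes, and in DESeq2 the adjusted p was 1.98e-05 for Cyp4d21 and 0.00187 for sxe2. to (takeout), another gene known for male-biased expression in the head fat body, had 239, 124 and 11.8 CPM in females, against 36.1, 24.6 and 152 CPM in males (0.82 ± 1.55, adjusted p = 0.910), with overlap.

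Of the 22 yolk and head fat body genes tested, 3 were called, all female-higher (fit, Obp99a and Yp3), against 0.0794% of all genes. An unadjusted p under 0.05 was found in 6 of the 22 with the female level above the male level, these 3 included, against 3.89% of all genes, and in 2 of the 22 with the male level above, against 6.83% of all genes. The list's median was 0.74, and 17 of 22 genes were above zero. Among those not called, Rfabg, the precursor of the main lipid carrier of the blood, had 6725, 5009 and 7333 CPM in females, against 3214, 3373 and 1400 CPM in males (1.26 ± 0.39, adjusted p = 0.181). The storage protein gene Lsp2 had 281, 147 and 70.9 CPM in females, against 56.4, 41.8 and 2.40 CPM in males (2.31 ± 1.25, adjusted p = 0.544). How much fat body each pool held was not measured apart from these genes, and its part in their levels was not tested.

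Among the other female-higher genes, CR45629, a noncoding gene on X (X:10217627-10219303, plus strand), had 3.17, 5.67 and 4.25 CPM in females and no count in any male library. Its female mean of 4.37 CPM was 66.7 times a limit of 3 counts over the 3 male libraries (0.0654 CPM). That limit covers counting error in males only, not the spread among females. The adjusted p was 0.00105 in edgeR's quasi-likelihood test, and the call held without any 1 of the 6 libraries. It overlaps CG15308 on the other strand, which had too few counts to be tested. CG15721, also on X, had the same all-or-none pattern and was chosen after its values were seen. It had 2.83, 18.9 and 5.03 CPM in females and no count in males, with an adjusted p of 0.113 in edgeR's quasi-likelihood test. Its female mean of 8.92 CPM, raised by F40B, was 136 times the same male limit.

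arg, on X, encodes arginase, which splits arginine into ornithine and urea. It had 6.21, 11.5 and 10.7 CPM in females, against 0.943, 1.29 and 1.85 CPM in males (2.79 ± 0.53, adjusted p = 0.0244, edgeR's quasi-likelihood test). It overlaps the neuronal gene elav on the other strand, which had 455, 518 and 593 CPM in females, against 257, 438 and 502 CPM in males. Reads of such overlapping pairs cannot be told apart without strand, and the strand setting of the counting is not given in the sources used here. Without F40A the adjusted p of arg was 0.0344, and without any other library it was 0.0559 to 0.0966.

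The remaining female-higher genes differed by smaller amounts or rested on few libraries. pyd3, an enzyme of pyrimidine breakdown, had 70.1, 73.3 and 76.7 CPM in females, against 45.8, 31.7 and 33.7 CPM in males (0.98 ± 0.20, adjusted p = 0.0360, edgeR's quasi-likelihood test). CG4407, annotated today as Flad1 and making the cofactor FAD, had 29.0, 25.5 and 24.9 CPM in females, against 17.3, 14 and 17.17 CPM in males (0.71 ± 0.14, adjusted p = 0.0254). SP1173 had 53.7, 65.2 and 68.8 CPM in females, against 41.4, 33.6 and 36.4 CPM in males (0.75 ± 0.14, adjusted p = 0.0244).

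GstD10, a glutathione S-transferase of a cluster of similar genes on 3R, had 15, 1.62 and 3.00 CPM in females, against 0.202, 0.203 and 0.985 CPM in males (3.79 ± 0.78, adjusted p = 0.0376, edgeR's quasi-likelihood test). F40A alone gave the high female mean, and without F40A the log2 fold change was 2.31 with an adjusted p of 0.185. It was the only called gene of 37 glutathione S-transferases tested, whose median was -0.10. Its call was also lost without M40A (0.110) or M40B (0.116). With 1 library left out at a time, SP1173 passed only without F40A (adjusted p = 0.0331) or M40A (0.0361), pyd3 only without M40A (0.0361) and CG4407 never (0.0531 to 0.130).

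On the male-higher side the gene with the smallest p after the roX RNAs was CR43283, the long noncoding RNA cherub (3R:11247631-11256123, minus strand), known from dividing neural stem cells of the larva. It had 14.69, 20.4 and 19.2 CPM in females, against 50.9, 69.6 and 47.8 CPM in males (-1.63 ± 0.22, adjusted p = 0.00193, edgeR's quasi-likelihood test). The sexes were well apart, and the call held without any 1 of the 6 libraries. CG18467 had 16.2, 13.6 and 20.0 CPM in females, against 32.0, 33.0 and 46.3 CPM in males (-1.16 ± 0.22, adjusted p = 0.0244). It lies within EDTP on the other strand, whose own log2 fold change was 0.05. Its call was lost without F40A (adjusted p = 0.125), F40B (0.169) or M40C (0.102).

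The respiratory chain is the set of enzyme complexes in the inner mitochondrial membrane that passes electrons to oxygen. Of 60 tested genes for its complexes I to IV and cytochrome c, 4 were called, all male-higher, and 34 (56.7%) had an unadjusted p under 0.05 in that direction, against 6.83% of all genes. None had such a p in the female-higher direction, 56 of 60 were below zero, and the list's median was -0.36. Female and male libraries did not overlap in 27 of them (45.0%), all with males higher, against 8.62% of all genes.

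The 4 called genes were CG7580, ND23, CG7712 and l(3)neo18. CG7580 (UQCR-Q), a small subunit of complex III, had 57.9, 66.4 and 69.0 CPM in females, against 109, 105 and 110 CPM in males (-0.75 ± 0.12, adjusted p = 0.00944, edgeR's quasi-likelihood test). ND23, an iron-sulphur subunit of complex I, had 86.8, 87.8 and 85.0 CPM in females, against 144, 125 and 131 CPM in males (-0.62 ± 0.11, adjusted p = 0.0140). The female values of both were within a narrow range, and every male library lay above it.

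The complex I accessory subunits CG7712 (ND-B14) and l(3)neo18 (ND-SGDH) showed the same order. CG7712 had 33.8, 34.0 and 34.6 CPM in females, against 58.0, 42.5 and 58.2 CPM in males (-0.63, adjusted p = 0.0360, edgeR's quasi-likelihood test), and l(3)neo18 had 89.6, 86.2 and 93.5 CPM in females, against 147, 127 and 148 CPM in males (-0.65, adjusted p = 0.0478). The list's median was -0.30 without M40A and ran to -0.41 without M40C. None of the 4 calls remained without F40A (adjusted p of 0.0744 to 0.154) or without F40B (0.0531 to 0.186). ND23 was also lost without F40C (0.0724) or M40A (0.0531), CG7712 passed only without M40B (0.0151), and l(3)neo18 was lost without any 1 of the 6 libraries (0.0676 to 0.186).

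Mitochondrial ribosomal proteins build the ribosome that translates the mitochondrial genome. Their 72 tested genes had no call in edgeR's quasi-likelihood test and 4 in DESeq2, which called 202 of 10819 genes in all. An unadjusted p under 0.05 with males higher was found in 27 genes (37.5%), against 6.83% of all genes. The list's median was -0.31, and 67 of 72 were below zero. mRpL50, chosen after its values were seen, came nearest with 11.7, 10.1 and 13.5 CPM in females, against 21, 16.1 and 31.4 CPM in males (-0.95, adjusted p = 0.0539). The 14 tested ATP synthase genes had a median of -0.26, with 5 (35.7%) at an unadjusted p under 0.05 and males higher. They had no call in edgeR and 1 in DESeq2. Ribosomal proteins of the cytosol stood apart from these, with a median of -0.08 over 83 genes and no call. At an unadjusted p under 0.05 they had 1 female-higher gene (1.2%) and 6 male-higher genes (7.23%).

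Among the other male-higher genes, CG17680 (EMRE), a regulator of the mitochondrial calcium channel, had 17.9, 15.5 and 19.6 CPM in females, against 31.7, 29.8 and 33.1 CPM in males (-0.83 ± 0.13, adjusted p = 0.00846, edgeR's quasi-likelihood test). ttm50, a part of the import machinery of the inner membrane, had 23, 18.9 and 20.7 CPM in females, against 31.4, 31.6 and 29.1 CPM in males (-0.56, adjusted p = 0.0198). CG5955 (Tdh), a threonine dehydrogenase, had 43.4, 51.4 and 61.5 CPM in females, against 193, 176 and 69.6 CPM in males (-1.49 ± 0.31, adjusted p = 0.0478), and M40C lay close to the females. The adjusted p of CG5955 was 0.00423 without M40C and 0.0884 to 0.186 without any other library, and CG17680 lost its call only without F40B (0.0629). ttm50 passed only without F40A (0.0331) or M40C (0.0356).

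No list was drawn up for the next male-higher genes, which are given singly. Su(var)205, which encodes heterochromatin protein HP1a, had 56.6, 63.6 and 64.8 CPM in females, against 91.3, 83.4 and 84.0 CPM in males (-0.48 ± 0.09, adjusted p = 0.0202, edgeR's quasi-likelihood test). HmgZ, a high-mobility-group DNA-bending protein, had 144, 119 and 148 CPM in females, against 248, 200 and 278 CPM in males (-0.82 ± 0.15, adjusted p = 0.0202), and it overlaps its relative HmgD (-0.63, adjusted p = 0.139). Dpy-30L1, a subunit shared by histone methyltransferase complexes, had 9.93, 8.51 and 10.1 CPM in females, against 17.3, 14.2 and 18.3 CPM in males (-0.80 ± 0.13, adjusted p = 0.00961).

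Mapmodulin, a relative of the ANP32 nuclear phosphatase inhibitors, had 150, 133 and 152 CPM in females, against 215, 219 and 258 CPM in males (-0.67 ± 0.10, adjusted p = 0.00624, edgeR's quasi-likelihood test). SmG, a core protein of the splicing particles, had 12.4, 14.3 and 15.9 CPM in females, against 24.1, 24.6 and 24.0 CPM in males (-0.77, adjusted p = 0.0202). In all 5 of these genes every male library exceeded every female library, by less than 2-fold on average. The calls of Mapmodulin and Dpy-30L1 were lost only without F40B (adjusted p = 0.0658 for each). SmG passed only without F40C (0.0464) and HmgZ only without M40B (0.0151), and Su(var)205 was lost without any 1 of the 6 libraries (0.0531 to 0.135).

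The other 13 male-higher genes had log2 fold changes of -1.31 for l(2)35Cc to -0.54 for CG3065. Among them endos, an inhibitor of the phosphatase PP2A in dividing cells, had 84.2, 76.4 and 87.3 CPM in females, against 132, 118 and 114 CPM in males (-0.56, adjusted p = 0.0287, edgeR's quasi-likelihood test). maf-S, the small Maf partner of the stress-response factor CncC, had 48.3, 48.7 and 48.7 CPM in females, against 80.2, 71.4 and 65.4 CPM in males (-0.57, adjusted p = 0.0347). CG7949, now named galla-2, had 10.7, 11.8 and 9.23 CPM in females, against 19.1, 17.3 and 27.8 CPM in males (-1.02, adjusted p = 0.0164). With 1 library left out at a time endos never passed (adjusted p of 0.0531 to 0.178), maf-S passed only without M40C (0.0395), and CG7949 only without M40A (0.0296) or M40B (0.0126).

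The called genes are short in both directions, and a trend with gene length runs through the comparison. The 32 male-higher genes had a median summed exon length of 1101.5 bases, the 9 female-higher genes 1243 bases and all tested genes 1933 bases. Over all genes the median log2 fold change was -0.01 for up to 300 bases of exons, -0.26 for 300 to 600 bases and -0.22 for 600 to 1000 bases, against 0.10 for 4000 to 7000 bases and 0.21 for over 7000 bases. The respiratory chain list had a median exon length of 842 bases and the mitochondrial ribosomal list 783 bases.

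The libraries did not share this trend equally. For genes over 7000 bases the median deviation from the mean of the 6 libraries, in log2 CPM, was 0.01, 0.18 and 0.15 in F40A, F40B and F40C, against -0.36, 0.00 and 0.06 in M40A, M40B and M40C. M40A and F40B thus lay at the ends. At 5, 20 and 30 days genes over 7000 bases had median log2 fold changes of -0.16, 0.05 and -0.39.

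When the length trend of each library was removed before the test, 25 genes were called, 13 higher in females and 12 higher in males. Males were then higher in 48.0% of calls, against 78.0% without the correction, and 20 of the 41 genes remained called (all 9 female-higher and 11 male-higher). The respiratory chain list had a median of -0.17, 1 call (CG7580, adjusted p = 0.0286) and 14 of 60 genes at an unadjusted p under 0.05. The mitochondrial ribosomal list had a median of -0.11 and 8 such genes among 72. Under this setting 1076 of all 11332 genes had such a p, counting both directions. CG17680 (adjusted p = 0.0564), Dpy-30L1 (0.0564), ND23 (0.109) and Su(var)205 (0.154) lost their call. With F40B and M40A left out, which was added with the data in view, 7 genes were called, 4 higher in females and 3 in males. The respiratory chain list then had a median of -0.30 with no call in edgeR and 20 genes at an unadjusted p under 0.05. Of all 11302 genes tested in that setting, 897 had such a p in either direction.

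**Figure D3:**
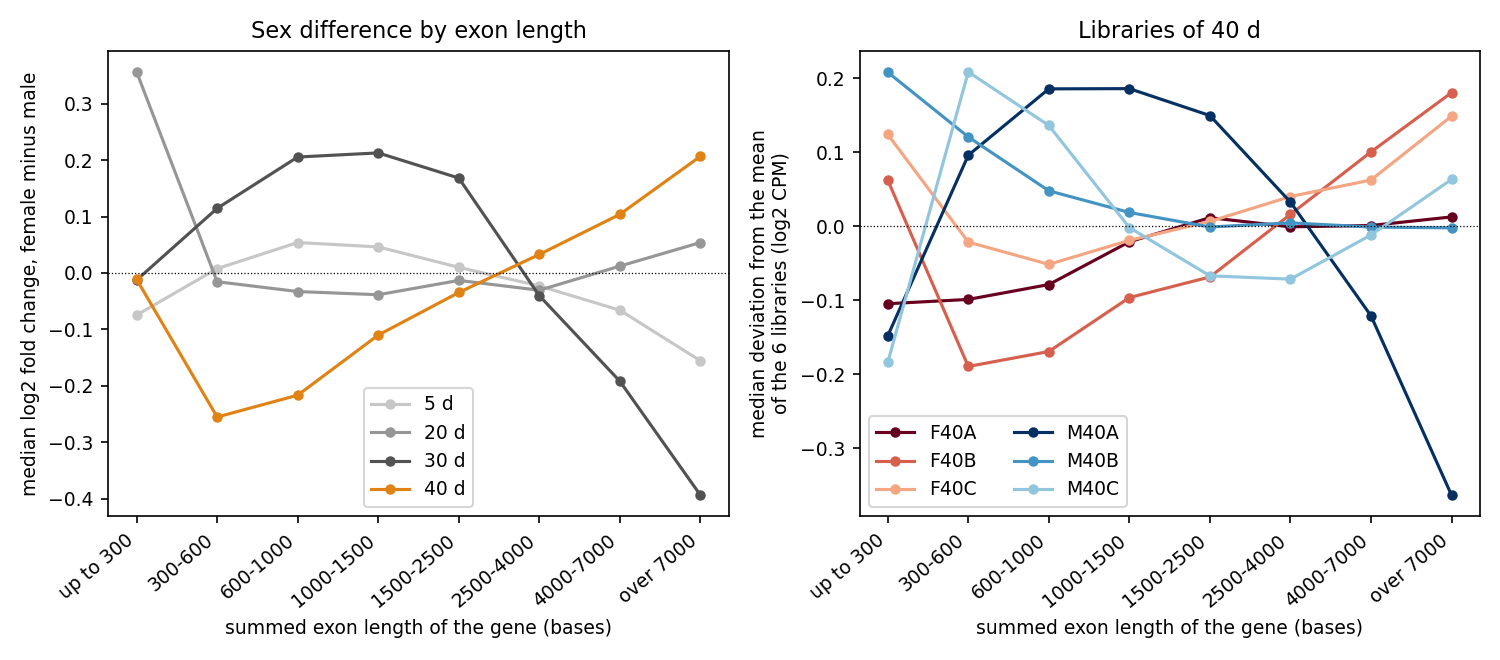
Left, median log2 fold change (female minus male) of genes grouped by summed exon length in bases, at each of 4 ages. Right, median deviation of each library of 40 days from the mean of the 6 libraries, in log2 CPM. At 40 days genes of 300 to 600 bases lie at -0.26, those of up to 300 bases near zero and those over 7000 bases at 0.21, and M40A departs most from the others among long genes, at -0.36.

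Neuropeptides are the peptide messengers of neurons. Of 41 tested genes 1 was called, 8 had an unadjusted p under 0.05 with males higher (19.5%, against 6.83% of all genes) and none with females higher, and the median was -0.35. The called gene was Dsk (3R:4189692-4190260, minus strand), which encodes drosulfakinin, a cholecystokinin-like peptide of satiety and aggression. It had 63.7, 71.6 and 95.1 CPM in females, against 189, 182 and 144 CPM in males (-1.16 ± 0.23, adjusted p = 0.0328, edgeR's quasi-likelihood test).

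Dsk lies within the noncoding gene CR33294 on the other strand, whose log2 fold change was -0.63 (adjusted p = 0.778). The call of Dsk held without M40C (adjusted p = 0.0476) and was lost without any other library (0.0533 to 0.170) and with the length trend removed (0.139), where the list's median was -0.20. Dsk exons sum to 569 bases. The neuropeptide list's median exon length was 857 bases.

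The other neuropeptides are named after their values were seen, and none of them passed. SIFa, a peptide of a few cells that govern sexual behaviour and feeding, had 9.18, 16.7 and 15.5 CPM in females, against 19.3, 33.4 and 33.2 CPM in males (-1.06, adjusted p = 0.141). AstC, an inhibitory allatostatin, had 220, 186 and 239 CPM in females, against 356, 293 and 348 CPM in males (-0.63, adjusted p = 0.172), and Pdf, the output peptide of the clock neurons, had 79.8, 69.5 and 85.8 CPM in females, against 137, 107 and 104 CPM in males (-0.57, adjusted p = 0.299). Trissin (-0.74, adjusted p = 0.141) and Crz, the gene of corazonin (-0.60, adjusted p = 0.202), had the same order without overlap. Of the insulin-like peptides, Ilp5 had 41.4, 51.9 and 65.1 CPM in females, against 36.0, 31.1 and 22.1 CPM in males (0.83, adjusted p = 0.502). Ilp2 had 132, 220 and 249.5 CPM in females, against 397, 313 and 225 CPM in males (-0.64, adjusted p = 0.544), and Ilp3 had a log2 fold change of -0.43 (adjusted p = 0.764).

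Genes of neuronal transmission had medians above zero. The 48 neurotransmitter receptor genes had a median of 0.22 and the 39 ion channel genes one of 0.20, with no call in either list and 0 and 1 genes at an unadjusted p under 0.05. Summed ion channel levels were 7445, 8179 and 9178 CPM in F40A, F40B and F40C, against 4629, 8143 and 9051 CPM in M40A, M40B and M40C, so that M40A alone was low. Without M40A the medians were 0.05 for receptors and -0.005 for ion channels. Median exon length was 5091.5 bases for receptors and 5351 bases for ion channels, against 1933 bases for all tested genes. The lists of neuron identity genes (21 tested, median 0.04) and of glial and blood-brain barrier genes (26 tested, median -0.05) lay near zero.

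**Figure D4:**
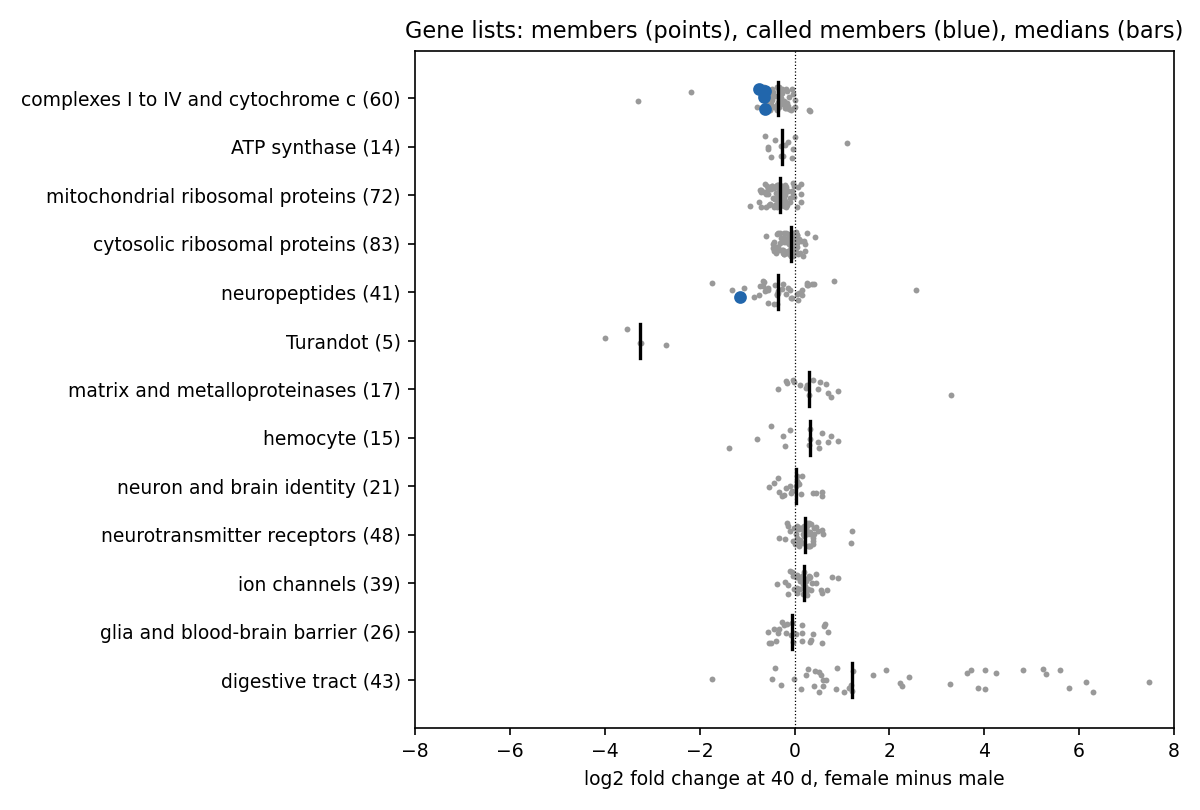
Log2 fold change at 40 days (female minus male) of every tested member of 13 gene lists, with the number of members in parentheses. Grey points are members that were not called, blue points called members and black bars medians. The bar of the respiratory chain list is at -0.36, that of the Turandot list at -3.27, and the digestive tract list spreads furthest to the right.

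Among stress and immune genes, summed Turandot levels varied widely between pools, from 70.35 CPM in F40B to 3293 CPM in M40A. Summed heat shock levels ran from 4231 to 5649 CPM, and those of antimicrobial peptides from 6631 to 10040 CPM. All 5 tested Turandot genes, which encode secreted proteins of the response to stress, were below zero with a median of -3.27. An unadjusted p under 0.05 with males higher was found in 4 of them (80%), against 6.83% of all genes. None was called in edgeR, and 2 were called in DESeq2, which called 202 of 10819 genes in all. TotX had 9.04, 5.00 and 7.43 CPM in females, against 182, 28.9 and 41.3 CPM in males (-3.54 ± 0.82, adjusted p = 0.0747, edgeR's quasi-likelihood test). TotA had 104, 38.9 and 106 CPM in females, against 1666, 229 and 513 CPM in males (-3.27, adjusted p = 0.168). M40A was the highest library for both, and without it the list's median was -2.20 with 2 genes at an unadjusted p under 0.05. In that setting 1190 of 11323 genes had such a p in either direction.

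Of 28 antimicrobial peptide genes none was called in edgeR, and the median was 0.46. An unadjusted p under 0.05 with females higher was found in 3 (10.7%), against 3.89% of all genes. Drs, the antifungal drosomycin, had 146, 480 and 133 CPM in females, against 18.5, 51.0 and 14.3 CPM in males (3.18 ± 0.82, adjusted p = 0.107). Heat shock proteins had a median of 0.05 over 24 genes, with 5 (20.8%) at an unadjusted p under 0.05, all female-higher. Among them Hsp27 had 4.69, 5.13 and 2.64 CPM in females, against 1.62, 1.22 and 0.554 CPM in males (1.87, adjusted p = 0.0886), and Hsp68 had 47.2, 55.5 and 41.6 CPM in females, against 27.3, 29.8 and 29.7 CPM in males (0.73, adjusted p = 0.296).

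The basement membrane is the sheet of extracellular matrix around organs. Of 17 matrix and metalloproteinase genes 6 (35.3%) had an unadjusted p under 0.05 with females higher, against 3.89% of all genes, none had one with males higher, and the median was 0.30. None was called in edgeR and 1 in DESeq2, which called 202 of 10819 genes in all. In 8 genes (47.1%, against 7.07% of all genes) the 3 female libraries exceeded every male library. The list's median exon length was 5955 bases, and all tested genes of 4000 to 7000 bases had a median log2 fold change of 0.10.

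Ndg, the basement membrane linker nidogen, had 51.4, 28.2 and 46.4 CPM in females, against 2.69, 7.73 and 2.46 CPM in males (3.29 ± 0.80, adjusted p = 0.0845, edgeR's quasi-likelihood test). LanA, the laminin alpha chain, had 207, 150 and 166 CPM in females, against 108, 88.3 and 82.4 CPM in males (0.91, adjusted p = 0.194). LanB1 (0.71, adjusted p = 0.205) and the collagen IV gene Cg25C (0.76, adjusted p = 0.227) had the same order without overlap. With the length trend removed, the log2 fold changes were 3.21 for Ndg, 0.62 for LanA, 0.55 for LanB1 and 0.59 for Cg25C. Matrix genes are also made by blood cells and fat body, and the 15 tested blood cell genes had a median of 0.34, with Hml at 444, 435 and 504 CPM in females, against 398, 283 and 163 CPM in males. Whether such cells bear on the matrix genes was not tested.

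Transcripts of the gut and the eye were uneven among libraries rather than split by sex. The 43 tested digestive tract genes summed to 24200, 355 and 781 CPM in F40A, F40B and F40C, against 2361, 1931 and 10300 CPM in M40A, M40B and M40C. Their median of 1.21 became -5.93 without F40A and 3.87 without M40C, so its direction rested on F40A. Of these genes 5 (11.6%) had an unadjusted p under 0.05, all with females higher, against 3.89% of all genes. None was called in edgeR or DESeq2. The eye gene ninaE, which encodes the main rhodopsin, had 4228, 6138 and 5592 CPM in females, against 8665, 2690 and 6537 CPM in males. The egg-shell markers dec-1 and Vm26Aa did not exceed 0.808 CPM in any library. The accessory gland marker Acp36DE had 0, 0.405 and 1.32 CPM in females, against 0 CPM in each male library, and Acp70A had no value. With F40A and M40C both left out, 8 genes were called, 2 higher in females and 6 in males.

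The same contrast at younger ages shows which differences were shared. At 5, 20 and 30 days 19, 39 and 113 genes were called (0.168%, 0.344% and 0.997%), and of the 41 genes called at 40 days 9, 10 and 12 were called at those ages. These were different libraries, with only 2 of males at 30 days, although the same fit gave the spread. A group of 9 genes was called at all 4 ages, and it held fit, Obp99a, Yp3, arg and CR45629, higher in females, and roX1, roX2, msl-2 and CR43283, higher in males. CR45629 averaged 1.97, 1.10, 1.68 and 4.37 CPM in females of 5, 20, 30 and 40 days.

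The female-higher genes kept their sign at the younger ages in 8, 8 and 9 of 9 cases, and the male-higher genes in 22, 27 and 19 of 32. The median log2 fold change of the 32 male-higher genes, chosen at 40 days, was -0.06, -0.27 and -0.08 at 5, 20 and 30 days. HP1a gene Su(var)205 had log2 fold changes of 0.06, 0.00 and 0.06 at 5, 20 and 30 days, and Dpy-30L1 had 0.13, -0.10 and 0.08. Both are among the 8 genes with the smallest p in the interaction with younger ages given below, so their choice favoured small differences at those ages. The respiratory chain list had medians of -0.12, -0.35 and 0.03. CG18467, in contrast, had -0.88, -1.11 and -1.28 at those ages.

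Whether the sex difference at 40 days differed from that at younger ages was tested as an interaction. No gene passed for 40 against 5 days in edgeR's quasi-likelihood test (712 at an unadjusted p under 0.05, smallest adjusted p = 0.337), and DESeq2 called 18. None passed for 40 days against the mean of the 3 younger ages (1337 at an unadjusted p under 0.05, smallest adjusted p = 0.103), and DESeq2 called 141. A change of the sex difference with age is therefore not established by the edgeR test for any gene below.

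Obp99b had the smallest p for 40 against 5 days. Its group means at 5, 20, 30 and 40 days were 3.19, 25.9, 70.7 and 110 CPM in females, against 243, 229, 125 and 78.4 CPM in males, and its log2 fold changes were -6.25, -3.15, -0.82 and 0.48. It was called at 5 days (adjusted p = 0.0118). The difference between 40 and 5 days was 6.74 ± 1.25 on the log2 scale, with an unadjusted p of 5.84e-05 and an adjusted p of 0.337.

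Lsp2, which passed at no age in edgeR, averaged 172, 282, 320 and 166 CPM in females of 5, 20, 30 and 40 days, against 1548, 816, 269 and 33.5 CPM in males. The mean level of each yolk gene was lower in females of 40 days than at the younger ages, a change within females that was not tested here. The spread was wide. Among females of 30 days Yp1 had an SD of 30380 CPM, and a library of that group had 5470 CPM, below F40C at 5998 CPM. Yp1 averaged 24240, 24870, 26290 and 4422 CPM in females of 5, 20, 30 and 40 days, against 20.1, 68.8, 10.6 and 86.7 CPM in males, and its log2 fold changes were 10.24, 8.50, 11.27 and 5.67. The interaction with the mean of the younger ages had an adjusted p of 0.273 for Yp1, 0.254 for Yp2 and 0.157 for Yp3.

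Ndg was called at each younger age (adjusted p of 0.0118, 0.0179 and 0.0383), with log2 fold changes of 5.48, 4.81 and 5.05, against 3.29 at 40 days. Dsk had log2 fold changes of -0.04, -0.60, -0.87 and -1.16 at 5, 20, 30 and 40 days, and the difference between 40 and 5 days was -1.12 ± 0.32 (unadjusted p = 0.00269, adjusted p = 0.571, edgeR's quasi-likelihood test). The 8 genes with the smallest p against the mean of the younger ages were Dpy-30L1, CG8498 (Acbp1), CG17765, Su(var)205, maf-S, CG6878, CG6013 and CG10265, all with an adjusted p of 0.103 and all lower in females at 40 days.

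**Figure D5:**
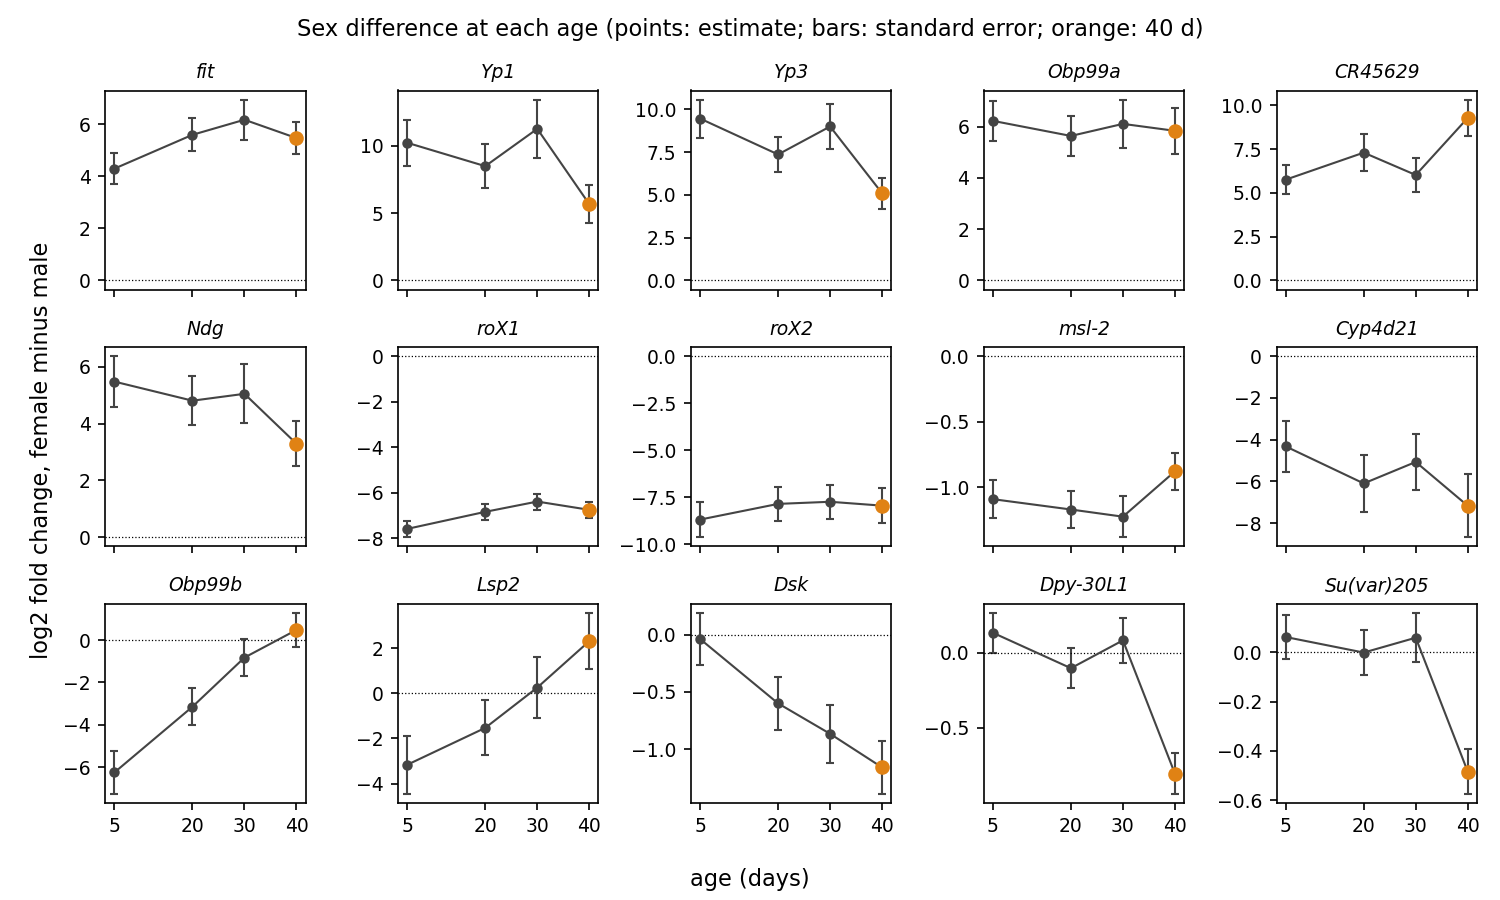
Log2 fold change (female minus male) of 15 genes at 5, 20, 30 and 40 days, with standard errors from the fit of all libraries and 40 days in orange. roX1, roX2, msl-2, fit and Obp99a kept their side of zero at every age, and Obp99b passed from -6.25 at 5 days to 0.48 at 40 days. Dpy-30L1 and Su(var)205 lay away from zero at 40 days only. They are among the 8 genes with the smallest p in the interaction with younger ages, in which no gene passed in edgeR, so their choice favoured this shape. The vertical axes differ, and the values of CR45629 at 20 and 40 days, where males had no count, depend on the prior count.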

How the data were processed

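RNA of 23 pools of 18 brains was sequenced by the study. Per the labels and the study's methods, the authors trimmed reads with Trimmomatic 0.35, aligned them with STAR to dm6 and assigned them to genes with HTSeq in union mode. The deposited values are the authors' raw counts per gene, with no normalization. The strand setting of the counting is not given in the sources used here, and 2241 genes had no count.

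Counts were tested with edgeR 4.0.16 in R 4.3.3 (filterByExpr with a minimum count of 10, TMM, robust quasi-likelihood fit) in a fit of 8 groups of sex and age with 15 residual degrees of freedom. The two-sided contrast was female minus male at 40 days, with Benjamini-Hochberg adjustment over 11332 genes and a threshold of 0.05, and "called" and "passed" mean below it. The study itself tested ages within each sex. Levels are TMM-scaled CPM. p-values of single genes come from this fit, since an exact permutation test of 3 against 3 libraries cannot go below 0.1. Whether the replicate letters pair females with males was not settled. Deviations of libraries with the same letter correlated at -0.339, 0.128 and -0.382 at 40 days, and at -0.542 to 0.411 at the younger ages. Deviations from the mean of so few libraries depend on each other, so these correlations cannot decide it. Symbols were matched to Ensembl and RefSeq annotation of the dm6 assembly to obtain coordinates and summed exons. Of these, 12872 carried an identical symbol, 4519 were found through a synonym and 130 were not found.

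Genes named were drawn from a pool set by a rule: up to 15 called genes per direction with the smallest p, no overlap between the sexes and at least 5 CPM in the higher sex, all members of the sex determination, dosage compensation, Y-linked and yolk lists, called members of the other lists (up to 4) and the 8 genes with the smallest p in the interaction with younger ages. Other genes, among them nod, CR45629, CG15721, HmgZ, HmgD, CG18467, CG5955, SmG, endos, l(2)35Cc, CG3065, CR45046, CR45601, mRpL50, Ndg, LanA, LanB1, Cg25C, Drs, Hsp27, Hsp68, Ilp2, Ilp3, Ilp5, the Turandot genes and all neuropeptides except Dsk, were chosen after their values were seen. The comparison, the members and the lists were chosen with earlier results of these data known.

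Alternatives were DESeq2 1.42.0, its size factors, library totals, other count filters, the 6 libraries alone, the replicate letter as a block, libraries with gut transcripts left out, removal of an exon-length trend per library, and each library left out. Leaving out F40B and M40A together was chosen with the data in view. The test was tried on counts simulated from the real means and library sizes, with a spread set by the mean level alone. Such counts hold no gut-rich library and no length trend, so the trial cannot tell how the test behaves under these. Figures were drawn with matplotlib 3.10.9.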

Additional observations from a re-analysis of the deposited data

Results flagged for a closer look

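The 12 genes of the Y-linked list, which are best known for roles in sperm, had too few counts to enter the comparison. Their counts were nevertheless not equal between the sexes at 40 days, with 0 counts summed over the 3 female libraries, against 31 over the 3 male libraries. In males kl-5 had 0, 0 and 15 counts in M40A, M40B and M40C, kl-3 had 3, 9 and 0, kl-2 had 2, 1 and 0, and ARY had 0, 1 and 0, so that 4 genes carried all of them. Over all ages the list had 8 counts in the 12 female libraries, 7 of them from fdy, and 81 counts in the 11 male libraries. At 40 days 0 counts allow a level of up to 0.0777 CPM over the 3 female libraries, for counting error only.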

How the results depend on the processing

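The count of 41 genes was within 1.5 times under other size factors, library totals, no filter or a filter of at least 1 CPM (30 to 42 calls). It was 3 (1 female-higher, 2 male-higher) with the 6 libraries alone, 8 (2 and 6) without both gut-rich libraries, 4 (1 and 3) without every library with mex1 above 10 CPM, 25 (13 and 12) with the exon-length trend removed, 7 (4 and 3) without F40B and M40A, and 202 (77 and 125) in DESeq2. Without a filter 21 genes were male-higher. The sexes shared only a replicate letter, and the replicate block left 2 calls (0 and 2), roX1 and roX2. With 1 library left out at a time there were 9 to 27 calls, 4 to 10 female-higher and 4 to 20 male-higher, where the thinned sex was assumed to vary like the other groups. The settings that leave out libraries have fewer samples by construction, and the cause of the other shifts was not tested. No called gene changed sign under any of the 17 settings. roX1 and roX2 were called in all 17, fit in 15, CR45629 and CR43283 in 14, Obp99a in 12 and Mapmodulin in 11, and CG3065 and l(3)neo18 in 2. The interaction gave 0 calls in every edgeR setting, against 18 (40 against 5 days) and 141 (40 days against the mean of the younger ages) in DESeq2, and could not be fitted with the 6 libraries alone. The depth of F40B limits genes of low level most.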
